A study of Mus musculus with 16 samples.

Results

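Expression of Aim2 and of 7 other genes of the PYHIN family was followed in mouse CD4+ T cells. The genes are Aim2, Ifi206, Ifi213, Ifi204, the pseudogene Ifi203-ps, Mndal, Ifi211 and Ifi203. They were taken by their symbols, with earlier results of these data known, and make 8 of the 53090 genes in the deposited tables. Naive CD4+ T cells (Tn, CD44low CD62Lhigh) were selected immunomagnetically from the spleen of WT C57BL/6 mice and of Aim2-/- mice on the C57BL/6 background, and were not cultured. Treg were CD4+ T cells of the same genotypes kept for 48 h with anti-CD3/CD28, recombinant human TGF-beta and recombinant mouse IL-2. The mice were matched for sex and age and cohoused after weaning, their age is not given, and how the Aim2 allele was made is not given in the sources used here. Each of the 4 groups (WT Tn, Aim2-/- Tn, WT Treg and Aim2-/- Treg) had 4 libraries, 16 in all. The labels do not say whether these came from separate mice, so the p-values measure the spread between these libraries, which may be partly technical.

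PYHIN proteins pair a pyrin domain, through which proteins of inflammasomes assemble, with a HIN domain that binds double-stranded DNA, although single members lack one or the other. AIM2 is the cytosolic DNA sensor of the family: bound to DNA, it recruits the adaptor ASC (Pycard) and caspase-1, which matures interleukins and cleaves gasdermin D. Many family genes are induced by interferons, and in the mouse they lie side by side in a cluster that arose by gene duplication and differs in gene content between laboratory strains. In T cells AIM2 has been linked to control of AKT signalling through RACK1 and the phosphatase PP2A.

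The 8 genes lay within 591.8 kb of chromosome 1, from 173350879 to 173942672 (GRCm38, GENCODE M21). Aim2 stood at one end, on the plus strand (173350879 to 173466040). The others were on the minus strand, in the order Ifi206 (173468485 to 173491041), Ifi213 (173566283 to 173599274), Ifi204 (173747293 to 173766943), Ifi203-ps (173776529 to 173798270), Mndal (173849126 to 173942491), Ifi211 (173896345 to 173913046) and Ifi203 (173920407 to 173942672). Ifi203-ps is annotated as an unprocessed pseudogene and the other 7 as protein coding. The annotated span of Mndal contains that of Ifi211 and overlaps that of Ifi203, on the same strand. Another 6 family genes matched to the tables: Ifi214, Ifi209, Ifi208 and Ifi207 lie between Ifi206 and Ifi204, and Ifi202b and Ifi205 lie beyond Ifi203.

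Promoter sequences are given for a few of these duplicated genes. RefSeq (GRCm38.p6) gave promoters, each 250 bases before to 50 bases after a transcription start, for 6 of the 8 genes. Both strands were searched for the interferon-stimulated response element (ISRE), read as GAAA, any 2 bases and GAAA (or TTTC, any 2 bases and TTTC on the other strand), and for the gamma-activated site (GAS), TTCNNNGAA, which can overlap an ISRE. The ISRE letters were found in 3.44% of the 32851 promoters of the table (1131 promoters). Printed here are Aim2, which has no match in its RefSeq entry, and the pair Ifi206 and Ifi213, which were lower in Aim2-/- cells in both states. Ifi211 is printed as well, which was higher in Aim2-/- Tn but lower in Aim2-/- Treg cells. The Treg differences of Ifi206 and Ifi211 were not called. A link between promoter letters and genotype differences was not tested. All are 5′ to 3′ along the gene's strand, with an ISRE match in capitals.
Aim2, chr1:173420354-173420653, plus strand: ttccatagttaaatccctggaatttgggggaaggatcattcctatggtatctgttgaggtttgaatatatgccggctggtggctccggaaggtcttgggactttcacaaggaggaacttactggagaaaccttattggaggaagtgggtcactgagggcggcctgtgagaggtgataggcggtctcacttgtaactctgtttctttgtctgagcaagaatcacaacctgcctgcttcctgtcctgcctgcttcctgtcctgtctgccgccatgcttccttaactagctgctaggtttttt
Ifi206, chr1:173491269-173491568, minus strand: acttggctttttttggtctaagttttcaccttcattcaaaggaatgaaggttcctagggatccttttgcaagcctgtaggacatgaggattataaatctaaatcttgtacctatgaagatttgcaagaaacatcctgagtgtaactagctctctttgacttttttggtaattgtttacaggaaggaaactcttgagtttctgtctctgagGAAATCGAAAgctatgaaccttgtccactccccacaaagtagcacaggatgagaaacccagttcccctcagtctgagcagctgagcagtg
Ifi213, chr1:173599223-173599522, minus strand: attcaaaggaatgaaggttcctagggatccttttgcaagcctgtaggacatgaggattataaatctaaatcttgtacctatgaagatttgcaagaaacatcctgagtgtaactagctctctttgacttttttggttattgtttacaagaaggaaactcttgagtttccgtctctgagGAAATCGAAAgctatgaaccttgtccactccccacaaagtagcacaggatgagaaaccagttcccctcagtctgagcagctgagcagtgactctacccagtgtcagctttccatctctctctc
Ifi211, chr1:173912997-173913296, minus strand: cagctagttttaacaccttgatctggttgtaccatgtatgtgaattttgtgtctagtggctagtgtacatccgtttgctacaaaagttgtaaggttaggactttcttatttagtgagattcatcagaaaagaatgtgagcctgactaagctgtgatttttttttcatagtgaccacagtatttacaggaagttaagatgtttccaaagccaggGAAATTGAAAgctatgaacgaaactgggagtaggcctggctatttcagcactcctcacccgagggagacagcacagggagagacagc

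The Ifi206 and Ifi213 promoters were identical at 78.7% of aligned positions, and those of Ifi211 and Mndal at 55.0%. Aim2 was identical to those of the other 5 genes at 44.4% to 47.9%. Higher identities were found with family genes outside the 8. The Ifi208 promoter reached 89.5% with Ifi213 and 87.5% with Ifi206, and that of Ifi207 reached 85.9% with Ifi211. Ifi214 and Ifi209 were identical at 95.3%. Only 1 RefSeq entry per gene was aligned. The 46.0% between Mndal and Ifi203 rests on the Ifi203 entry without the ISRE letters. The other Ifi203 entry was not aligned, and it shares long runs of letters with the Mndal entry that was. In Ifi206 and Ifi213 the ISRE letters began 40 and 73 bases before the start. In Ifi211 they began 37 bases before it. Mndal had them 36 bases before the start of 1 RefSeq entry and 54 bases before that of another, and Ifi203 had them in 1 of its 2 entries, 35 bases before the start. The Aim2 promoter held neither motif, as was also so for the family gene Ifi209. The GAS letters, present in 8.3% of all promoters, were found in none of the promoters of the 6 genes with an entry. Ifi204 and Ifi203-ps had no entry and were not searched. The RefSeq starts used for Aim2 and Mndal lie inside the GENCODE spans given above, and other starts of these genes were not searched. A match is a run of letters and does not show that a factor binds there.

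Sequence shared between family members bears on every count given below, because a read that matches several genes is split between them by estimation. Of the 51-base words in the annotated transcripts of a gene, 51 being the read length, Aim2 shared 0 of 3501 with any other family gene, and its expected counts were whole numbers in all 16 libraries. Ifi211 stood at the opposite end, with 72.4% of its 1731 words found elsewhere in the family, among them 44.5% in Ifi205, 29.8% in Ifi204 and 16.8% in Mndal. The other 6 genes shared between 11.8% (Ifi203) and 25.5% (Ifi203-ps). Words were shared between Ifi206, Ifi213 and Ifi208, and between the genes from Ifi207 to Ifi205 other than Ifi202b, and none was shared across these 2 sets.

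**Figure D1:**
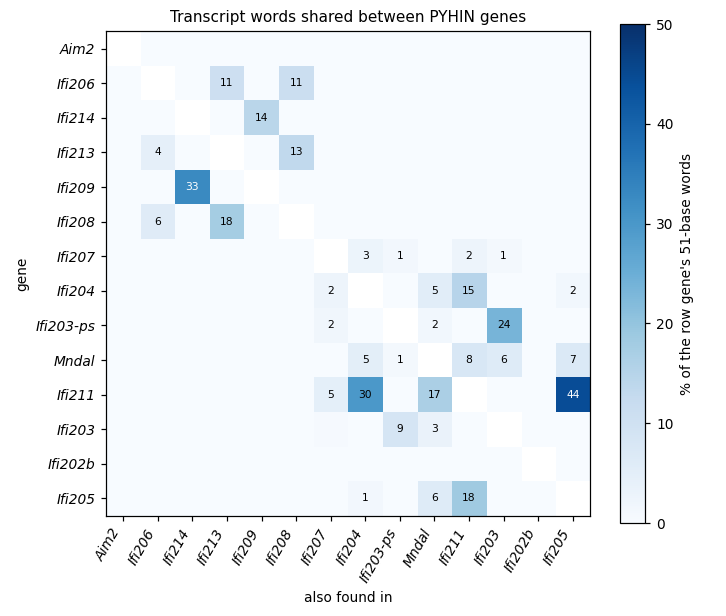
Percentage of the 51-base words of each gene (rows) that also occur in the transcripts of another PYHIN gene (columns), with genes in chromosome order and values under 1% left blank. The Aim2 row and column are empty, and the darkest cells are Ifi211 with Ifi205 (44.5%), Ifi209 with Ifi214 (32.8%) and Ifi211 with Ifi204 (29.8%).

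The longest coding run shared by Ifi211 and Ifi204 is printed because the values of Ifi211 in Aim2-/- cells must be read beside it. It covers 223 bases, coding bases 201 to 423 of both genes, and spans exons 2 and 3 of each (173906171 to 173907661 for Ifi211 and 173760169 to 173761663 for Ifi204 on chromosome 1, minus strand). A read inside it cannot be told to come from either gene.
Ifi211 and Ifi204, shared coding run: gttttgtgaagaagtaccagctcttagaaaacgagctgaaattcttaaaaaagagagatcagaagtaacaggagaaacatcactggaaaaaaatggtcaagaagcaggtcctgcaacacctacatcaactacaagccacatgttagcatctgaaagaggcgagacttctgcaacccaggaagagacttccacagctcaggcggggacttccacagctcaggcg

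The libraries held 22516424 to 34533316 expected counts each. CD4 T cell markers (7 genes, among them Cd3e and Cd4) summed to between 1857 and 4284 CPM (counts relative to the scaled library total, by TMM) in every library. Naive T cell markers summed to 4485 to 6191 CPM in Tn and 667 to 1083 CPM in Treg libraries, and Treg culture markers, Foxp3 and Il2ra among them, to 53.5 to 117 and 3103 to 4013 CPM, as the labels have it. Among WT Tn libraries, replicates 1 and 2 stood apart from replicates 3 and 4, in which Treg culture markers, for example, summed to 53.5 and 59.1 CPM against 113 and 115 CPM. Aim2-/- Treg libraries split by the same numbers, less widely, with sums of 3625 and 3610 CPM in replicates 1 and 2 and 3269 and 3103 CPM in replicates 3 and 4. No 2 libraries held the same values. In bulk RNA such as this, a lower value can come from fewer cells that express a gene or from less of its RNA per cell, and these cannot be told apart.

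Aim2 was tested first because it is the targeted gene. Its expected counts were 1098, 934, 765 and 975 in the WT Tn libraries and 247, 215, 176 and 213 in the Aim2-/- Tn libraries. In Treg they were 1057, 1410, 1435 and 1078 in WT and 287, 277, 263 and 193 in Aim2-/- libraries. The genotypes did not overlap in either state, as the labels have it, but 176 to 287 reads per library were still assigned to Aim2 in knockout cells. The counts do not say which part of the gene those reads came from.

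In CPM, Aim2 averaged 35.1 ± 2.75 in WT Tn and 7.41 ± 1.24 in Aim2-/- Tn cells (SD, n = 4 in each group here and below). The difference was -2.24 on the log2 scale (SE 0.13, edgeR quasi-likelihood test, Benjamini-Hochberg [BH] adjusted p = 1.1e-05). In Treg it averaged 39.9 ± 3.19 in WT and 9.20 ± 1.58 CPM in Aim2-/- cells, a log2 difference of -2.12 (SE 0.13, edgeR, BH-adjusted p = 0.00014). The Aim2 RNA difference between genotypes was not found to depend on the state, with an interaction of 0.13 (SE 0.18, edgeR, BH-adjusted p = 1.0).

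Genotype was associated with changes in both directions along the cluster. In Tn cells, 6 of the 8 genes passed the test at an adjusted p of 0.05, against 0.231% of the 13441 genes tested (31 genes). In Aim2-/- cells, 3 were lower (Aim2, Ifi206 and Ifi213; background for lower calls 0.0967%) and 3 were higher (Ifi204, Ifi203-ps and Ifi211; background for higher calls 0.134%), while Ifi203 and Mndal were not called. The 4 WT and 4 knockout libraries did not overlap for the same 6 genes, against 6.93% of the genes tested. In Treg, 4 of the 8 passed, against 0.219% of 13221 genes (29 genes): Aim2 and Ifi213 were lower (background 0.0908%) and Ifi204 and Ifi203-ps higher (background 0.129%). Ifi204 and Ifi203-ps entered both comparisons only through the knockout libraries, in which they were high, and Ifi213 entered the Treg comparison only through WT libraries, so a difference was built into their being tested. The same holds in part for Ifi211 in both comparisons and for Ifi206 in Treg, which had under 10 counts in 2 or more libraries of their lower group. The median log2 difference of the 8 genes was 0.23 in Tn and -1.41 in Treg, beside 0.0144 and -0.00161 over all genes tested, and describes a mixture of opposite changes. It stays at -1.41 with Ifi203-ps, at 0 in WT Treg, set to its lower bound.

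**Figure D2:**
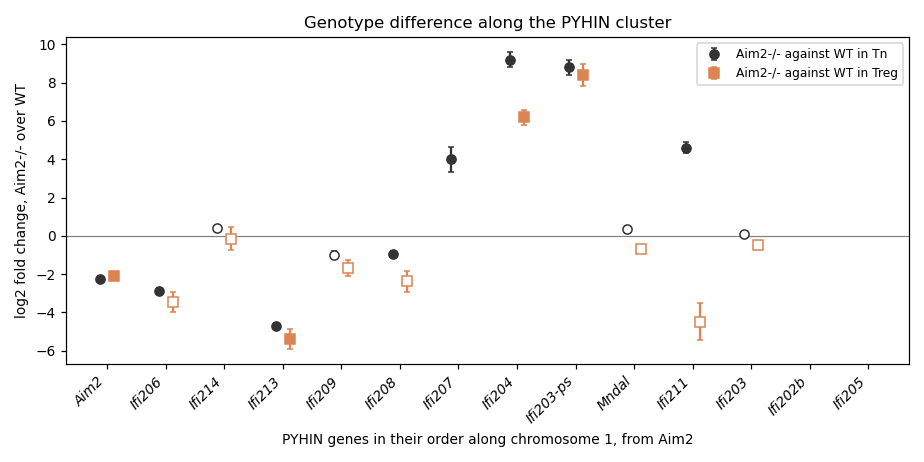
Log2 fold change of Aim2-/- over WT for PYHIN genes in their order along chromosome 1 (equal spacing), in Tn (circles) and Treg (squares), with bars of 1 SE, filled symbols for genes that passed the adjusted threshold and no symbol for genes not tested. Aim2, Ifi206 and Ifi213 lie below 0 and Ifi204 and Ifi203-ps above 0 in both states, Ifi211 lies on opposite sides (4.61 and -4.49), and values against a WT level near 0 depend on the prior count of the fit.

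Ifi206 and Ifi213 lie on the Aim2 side of the cluster, with Ifi214 between them. Ifi206 is the family gene next to Aim2. Its CPM was 114, 102, 159 and 149 in WT Tn and 15.6, 18.0, 20.7 and 17.5 in Aim2-/- Tn libraries. The lowest WT library was thus far above the highest knockout library, and the log2 difference was -2.86 (SE 0.16, edgeR, BH-adjusted p = 6.0e-06). In Treg, where the gene was low, CPM was 4.68, 3.71, 2.68 and 1.76 in WT and 0.612, 0.366, 0.0701 and 0.149 in Aim2-/- libraries. The groups again did not overlap (non-overlap in Treg was seen for 2.27% of all genes tested), but the log2 difference of -3.45 (SE 0.54) fell just outside the threshold (edgeR, BH-adjusted p = 0.052). That call depended on the fit: it passed with the block for replicate number (edgeR, BH-adjusted p = 0.00256), with all 16 libraries in one fit (BH-adjusted p = 0.00042), with DESeq2 (BH-adjusted p = 2.0e-07) and with 4 other settings, over a range up to a BH-adjusted p of 0.249. The 8 Treg libraries held 403 counts in WT and 32 in Aim2-/-, a ratio of 11.2 with a 95% counting interval of 7.84 to 16.7, which covers counting error only here and below.

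Ifi213 showed the largest fall of the 8 genes in both states. Its CPM was 122, 115, 118 and 135 in WT Tn and 3.73, 6.07, 3.66 and 4.92 in Aim2-/- Tn libraries, a log2 difference of -4.72 (SE 0.17, edgeR, BH-adjusted p = 1.8e-07). In Treg it was 2.48, 1.53, 2.83 and 1.26 in WT and 0.0792, 0.0733, 0.0408 and 0 in Aim2-/- libraries. The latter rest on 5 counts over 4 libraries against 254, a ratio of 45.3 (19.2 to 141), with a log2 difference of -5.37 (SE 0.53, edgeR, BH-adjusted p = 0.0032). The knockout Treg level is therefore at the edge of what this depth can measure. With replicates 3 and 4 alone the Treg call was lost (edgeR, BH-adjusted p = 0.20).

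Of the 8 genes, the next along the chromosome, Ifi204 and Ifi203-ps, differed in the opposite direction. Ifi204 encodes a DNA-binding protein best known from macrophages, where it has been linked to sensing of foreign DNA. Its CPM was 0.0529, 0.0403, 0.259 and 0 in WT Tn and 37.2, 61.0, 50.2 and 58.6 in Aim2-/- Tn libraries. This is 9 counts over the WT libraries against 6052 over the knockout libraries, a ratio of 624 (329 to 1370), from near the detection limit to 14.5 CPM per kilobase of exon, beside 10.03 for Aim2 in WT Tn cells (edgeR, BH-adjusted p = 2.5e-06). In Treg its CPM was 0, 0.0336, 0.0697 and 0.0852 in WT and 3.30, 3.20, 3.88 and 2.69 in Aim2-/- libraries, or 5 against 364 counts, a ratio of 81.6 (34.6 to 253, edgeR, BH-adjusted p = 0.00019).

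Because Ifi204 is a gene of myeloid cells, the 10 myeloid markers were read beside it. They summed to 4.31 to 10.6 CPM in WT Tn and 7.79 to 11.95 CPM in Aim2-/- Tn libraries, all 10 being detected in both groups. In Treg the sums were 0.704 to 1.75 CPM in WT and 0.371 to 2.62 CPM in Aim2-/- libraries, with Lyz2 and Tyrobp at 0 in all 8 libraries. Lyz2 was at 0.119 to 0.929 CPM in WT Tn and 0.937 to 1.46 CPM in Aim2-/- Tn libraries, without overlap, as for 6.93% of the genes tested. Of the 10 markers 5 were tested in Tn and 0 were called. Their log2 differences ran from -0.23 (Fcer1g) to 1.015 (Lyz2, edgeR, BH-adjusted p = 0.516). B cell markers (1.15 to 1.61 CPM in WT and 1.73 to 2.30 CPM in Aim2-/- Tn) and erythroid markers (1.24 to 3.98 and 5.15 to 7.95 CPM) were higher in every Aim2-/- Tn library than in every WT Tn library, and their part in the Tn differences was not tested. In Treg the B cell ranges overlapped (0.482 to 0.843 CPM in WT and 0.371 to 1.13 CPM in Aim2-/-) and erythroid markers summed to under those of Tn in every library (0.0337 to 0.182 CPM).

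Ifi203-ps differed in the same direction as Ifi204. The pseudogene shares 23.6% of its words with Ifi203. Its CPM was 0, 0, 0.0435 and 0.0351 in WT Tn and 9.09, 9.57, 9.95 and 12.3 in Aim2-/- Tn libraries, or 2 against 1187 counts, a ratio of 551 (152 to 4560, edgeR, BH-adjusted p = 8.1e-07). In WT Treg all 4 libraries were at 0, against 1.79, 1.63, 1.35 and 1.09 CPM in Aim2-/- Treg, which made the gene at least 60.1-fold higher with the floor set at 3 counts over the group (edgeR, BH-adjusted p = 0.0049). With replicates 3 and 4 alone the Treg call was lost (edgeR, BH-adjusted p = 0.18).

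**Figure D3:**
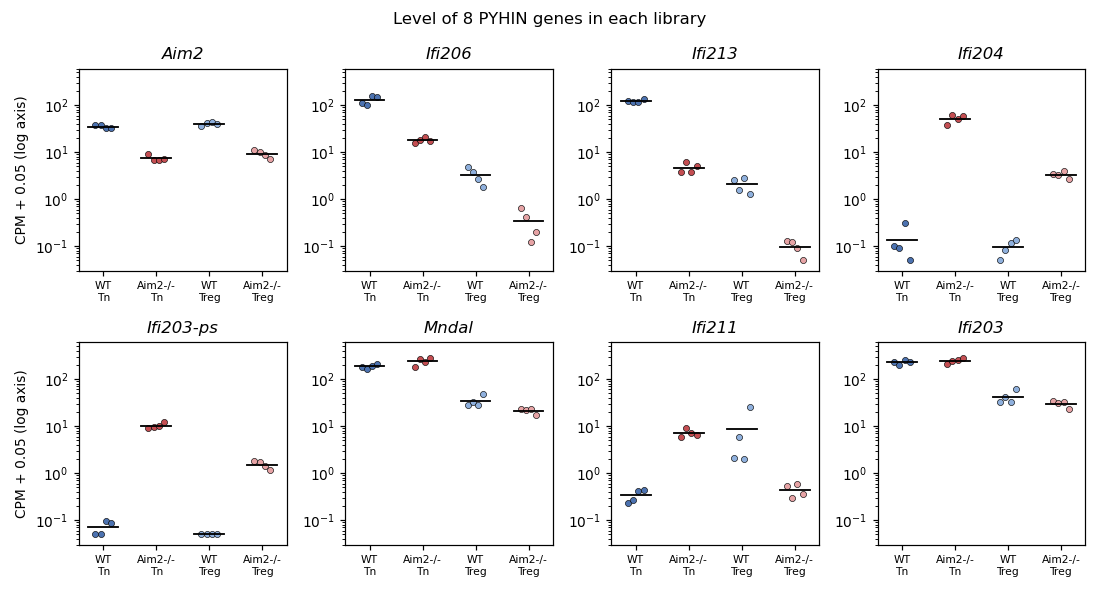
CPM of the 8 genes in each library on a log axis, after adding 0.05 so that 0 can be drawn, with points for the 4 libraries of a group and a bar at the group mean. Aim2 differs by genotype at the same level in both states, Ifi204 and Ifi203-ps are near the lower edge in WT, and 1 WT Treg library stands above the others for Ifi211 (25.3 CPM).

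Ifi203 and Mndal, toward the far end from Aim2, were called in neither state. Ifi203, a nuclear HIN domain protein, had a CPM of 235, 198, 255 and 232 in WT Tn and 206, 245, 253 and 275 in Aim2-/- Tn libraries. The ranges overlapped almost fully and the log2 difference was 0.10 (SE 0.11, edgeR, BH-adjusted p = 0.78). In Treg its CPM was 32.9, 41.4, 32.3 and 61.3 in WT and 33.3, 31.3, 32.7 and 22.9 in Aim2-/- libraries, a log2 difference of -0.49 (SE 0.22, edgeR, BH-adjusted p = 1.0).

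Mndal, named for its likeness to a myeloid nuclear differentiation antigen, had a CPM of 181, 162, 192 and 210 in WT Tn and 177, 266, 234 and 276 in Aim2-/- Tn libraries. The log2 difference was 0.36 (SE 0.14, edgeR, BH-adjusted p = 0.43). In Treg its CPM was 28.1, 32.7, 27.6 and 49.0 in WT and 22.6, 22.3, 23.0 and 17.2 in Aim2-/- libraries. Here every knockout library was below every WT library, but the log2 difference of -0.70 (SE 0.19) did not pass the test over all genes (edgeR, BH-adjusted p = 1.0).

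Ifi211 was the 1 gene of the 8 for which an interaction of genotype and culture was called. Its CPM was 0.178, 0.220, 0.371 and 0.387 in WT Tn and 5.86, 9.21, 6.98 and 6.55 in Aim2-/- Tn libraries. Knockout cells were higher, by 4.61 on the log2 scale (SE 0.28, edgeR, BH-adjusted p = 1.1e-05), with 834 against 31 counts, a ratio of 25.0 (17.5 to 37.0). In Treg the order was inverted: CPM was 2.09, 5.80, 1.99 and 25.3 in WT and 0.469, 0.243, 0.533 and 0.311 in Aim2-/- libraries. The groups did not overlap, but WT replicate 4 alone held 683 of the 1011 WT counts, and the log2 difference of -4.49 (SE 0.96) was not called (edgeR, BH-adjusted p = 0.33). Without that library the difference was -3.08 (SE 0.47, edgeR, BH-adjusted p = 0.070). DESeq2 (BH-adjusted p = 0.00023) and the edgeR fit of all 16 libraries (BH-adjusted p = 0.012) did call it.

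The difference between the Ifi211 genotype effects, Treg minus Tn, was -9.09 on the log2 scale (SE 1.10, edgeR, BH-adjusted p = 0.0046). The interaction was called for 0.0205% of 14669 genes (3 genes, the other two being Tmem181b-ps and Wdfy1). It remained when each library was left out in turn (edgeR, BH-adjusted p from 2.6e-06 to 0.041), and without WT Treg replicate 4 it was -7.68 (SE 0.56). The call, but not the size, was lost with limma-voom (-8.23, BH-adjusted p = 0.101) and with replicates 3 and 4 alone (-9.13, edgeR, BH-adjusted p = 0.399). For the other 7 genes no interaction was called, which does not show that it was absent: Mndal, Ifi204 and Ifi203 had an unadjusted p under 0.05 (interactions of -1.05, -2.99 and -0.57), as had 512 of the 14669 genes tested.

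The Ifi211 counts can be set beside those of Ifi204, with which it shares the coding run printed above. In Aim2-/- cells, where Ifi204 was present, Ifi211 counts were 0.112 to 0.157 of the Ifi204 counts in Tn libraries and 0.0761 to 0.142 in Treg libraries, so that both genes fell together with culture. In WT Treg, Ifi204 had no more than 2.31 counts in a library while Ifi211 had 62.0, 200, 66.0 and 683, and Ifi205, with which Ifi211 shares the most words, was at 0. The part of shared reads in the Ifi211 values of Aim2-/- cells was not tested, and the Ifi211 values there are uncertain for this reason. In WT Treg replicate 4, Ifi203 and Mndal were also at their highest of the group (61.3 and 49.0 CPM), while Ifi206 and Ifi213 were at their lowest (1.76 and 1.26 CPM).

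A sum over genes is less affected than single genes by how shared reads are divided, although the 8 genes also share words with family genes outside the sum. The 8 genes together reached 705 ± 69.0 CPM in WT Tn and 582 ± 84.3 CPM in Aim2-/- Tn cells, with overlapping ranges (614 to 759 and 464 to 658). In Treg they reached 130 ± 33.3 CPM in WT and 66.0 ± 9.82 CPM in Aim2-/- cells, without overlap (106 to 179 and 51.5 to 73.1). Without Aim2 the Treg sums were 90.4 ± 33.1 and 56.8 ± 8.43 CPM (67.5 to 139 and 44.3 to 62.2). Over all 14 family genes the Tn sums were 895.2 to 1180 CPM in WT and 630.7 to 875.2 CPM in Aim2-/- libraries, without overlap. The makeup of the sums differed as well: Aim2, Ifi206 and Ifi213 summed to 289 CPM in WT and 29.9 CPM in Aim2-/- Tn cells, and Ifi204, Ifi203-ps and Ifi211 to 0.397 and 69.1 CPM, which describes the calls above in CPM and is no separate evidence.

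The 6 other family genes were read in the same fits. In Tn, 2 of 4 tested were called, against 0.231% of all genes tested. Ifi208 was lower in Aim2-/- cells (176 ± 18.6 against 91.4 ± 15.6 CPM, log2 difference -0.94, SE 0.13, edgeR, BH-adjusted p = 0.012). Ifi207 was higher (5 against 94 counts, a ratio of 17.5, 7.22 to 55.0, edgeR, BH-adjusted p = 0.035). It entered this comparison only through the knockout libraries, in which it was high, so a difference was built into its being tested. Ifi214, 26.2 ± 5.78 against 34.5 ± 5.46 CPM in Tn, was not called in either state (log2 difference 0.40 in Tn and -0.14 in Treg). Ifi209, 152 ± 39.1 against 76.6 ± 14.5 CPM in Tn, was not called (edgeR, BH-adjusted p = 0.14). Ifi208 and Ifi209 lie between Ifi213 and Ifi204, and their Treg differences were -2.38 and -1.68. None of 3 tested in Treg was called by edgeR (background 0.219%), with 2 at an unadjusted p under 0.05, as had 304 of the 13221 genes tested. Ifi202b was at 0 in all 8 WT libraries and had 1 to 5 counts in each of the 8 Aim2-/- libraries, too few for a test.

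Culture in Treg conditions was examined next, in each genotype. In WT cells 5 of the 6 genes tested were called, against 76.9% of 13675 genes tested, and in Aim2-/- cells 7 of 8, against 79.3% of 13713, so that the shares are near the background and the sizes carry the description. In WT, 4 were lower in Treg (background 39.2%) and 1, Ifi211, was higher (background 37.7%). In Aim2-/- cells all 7 were lower (background 40.2%), without overlap between Tn and Treg libraries, which was seen for 74.8% of the genes tested there and for 72.9% in WT. Ifi213 entered the Aim2-/- comparison only through Tn libraries, in which it was high, so a difference was built into its being tested. The same holds in part for Ifi206 and Ifi211 in Aim2-/- cells. It also holds in part for Ifi211 in WT, where the Treg libraries were the higher ones. The median log2 change of the genes tested was -2.48 in WT (6 genes) and -3.74 in Aim2-/- cells (8 genes), beside -0.05 and -0.04 over all genes. Aim2 was the 1 gene called in neither. The culture comparisons share their libraries with the genotype comparisons, so the values are given side by side.

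**Figure D4:**
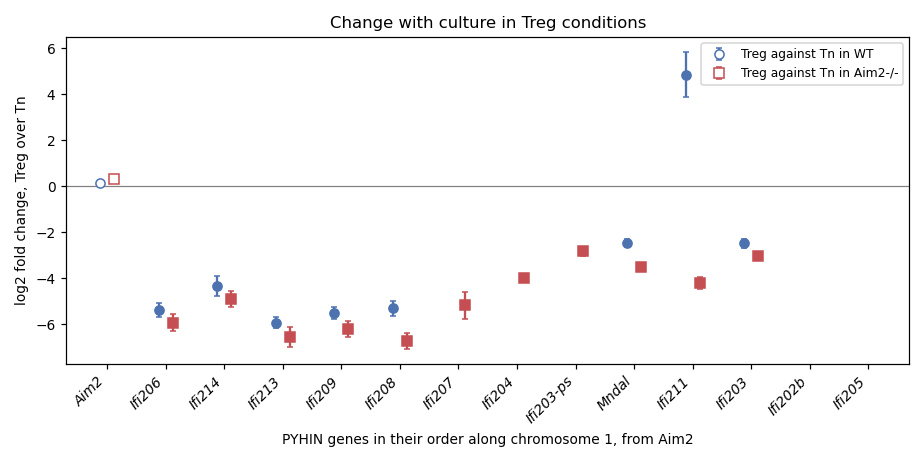
Log2 fold change of Treg over Tn for PYHIN genes in their order along chromosome 1 (equal spacing), in WT (circles) and Aim2-/- (squares), with bars of 1 SE, filled symbols for genes that passed the adjusted threshold and no symbol for genes not tested. Aim2 lies near 0 (0.15 and 0.30), and the other genes lie between -2.47 and -6.74 except for Ifi211 in WT (4.86).

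No change of Aim2 with culture was called. The difference from Tn to Treg was 0.15 in WT (SE 0.09, edgeR, BH-adjusted p = 0.14) and 0.30 in Aim2-/- cells (SE 0.17, edgeR, BH-adjusted p = 0.12). It was called a small increase under 2 of 18 alternatives in each genotype (values from 0.05 to 0.32 in WT and 0.23 to 0.42 in Aim2-/- cells). Its relative standing changed as the other genes fell. Per kilobase of exon, Aim2 reached 10.03 ± 0.785 CPM in WT Tn, below Mndal, Ifi206, Ifi209, Ifi203, Ifi208 and Ifi213, and 11.4 ± 0.910 CPM in WT Treg, the highest of the family, where Mndal followed with 9.46 ± 2.77 CPM, a gap within the spread of Mndal.

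Of the 8 genes, Ifi206 and Ifi213 fell furthest. In WT cells Ifi206 changed by -5.38 (SE 0.30, edgeR, BH-adjusted p = 2.3e-07) and Ifi213 by -5.94 (SE 0.23, edgeR, BH-adjusted p = 1.8e-08) on the log2 scale. In Aim2-/- cells, from a lower start, the changes were -5.94 (SE 0.36, edgeR, BH-adjusted p = 6.1e-08) and -6.55 (SE 0.43, edgeR, BH-adjusted p = 8.2e-08). The latter rest on 32 and 5 counts over the knockout Treg libraries, which gave ratios of 62.2 (43.9 to 91.2) and 104 (44.2 to 321).

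Ifi203 and Mndal fell by less and, per kilobase of exon, came next after Aim2 in WT Treg. Ifi203 changed by -2.49 in WT (SE 0.20, edgeR, BH-adjusted p = 2.6e-06) and -3.04 in Aim2-/- cells (SE 0.14, edgeR, BH-adjusted p = 3.7e-09). Mndal changed by -2.47 in WT (SE 0.19, edgeR, BH-adjusted p = 1.4e-06) and -3.50 in Aim2-/- cells (SE 0.16, edgeR, BH-adjusted p = 4.2e-09). The larger fall of Mndal in knockout cells was itself not called (interaction -1.05, SE 0.25, edgeR, BH-adjusted p = 0.71).

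Ifi204 and Ifi203-ps could be followed only in Aim2-/- cells, since they were not tested in WT. Ifi204 changed by -3.99 (SE 0.18, edgeR, BH-adjusted p = 3.9e-09) and Ifi203-ps by -2.82 (SE 0.19, edgeR, BH-adjusted p = 1.1e-07). Ifi211 moved apart between genotypes. It rose in WT cells, by 4.86 on the log2 scale (SE 0.98, edgeR, BH-adjusted p = 0.0014), from 31 to 1011 counts, and fell in Aim2-/- cells, with a change of -4.21 (SE 0.27, edgeR, BH-adjusted p = 6.6e-08). Without WT Treg replicate 4 the rise was 3.47 (SE 0.49), and with replicates 3 and 4 alone it was not called (edgeR, BH-adjusted p = 0.093). All of the other family genes tested, 3 in WT and 4 in Aim2-/- cells, were lower in Treg, with Ifi208 at -5.32 and -6.74, Ifi209 at -5.53 and -6.21, Ifi214 at -4.36 and -4.89 and Ifi207, tested in Aim2-/- cells alone, at 2 against 94 counts. Ifi207 entered that comparison only through the Tn libraries, in which it was high.

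Levels between genes were compared as CPM per kilobase of exon. In WT Tn cells the order was Mndal (51.3), Ifi206 (42.9), Ifi203 (34.3), Ifi213 (17.9) and Aim2 (10.03), with Ifi211 (0.162), Ifi204 (0.0247) and Ifi203-ps (0.0077) far below. In Aim2-/- Tn cells Mndal (65.7) and Ifi203 (36.5) were followed by Ifi204 (14.5), Ifi206 (5.88), Ifi211 (4.01), Ifi203-ps (4.00), Aim2 (2.12) and Ifi213 (0.672). Ifi211 and Ifi203-ps did not differ beyond their spread there. In Aim2-/- Treg cells Mndal (5.86), Ifi203 (4.48) and Aim2 (2.63) led, and Ifi204 (0.917), Ifi203-ps (0.573), Ifi211 (0.218), Ifi206 (0.0979) and Ifi213 (0.0071) followed.

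Interferon genes were read beside the cluster because many family genes respond to interferon. Of 30 interferon-stimulated genes (such as Isg15, Mx1 and Oas1a), edgeR called 0 between genotypes in Tn and 0 of 24 tested in Treg. Over all genes tested 0.231% and 0.219% were called, so 0 in a list of this size is near the background. An unadjusted edgeR p under 0.05 was seen for 4 in Tn and 0 in Treg, beside 1389 of 13441 and 304 of 13221 genes. The median log2 difference in Tn was 0.23, beside 0.0144 over all genes tested. Of 16 interferon receptor and signalling genes 0 were called in either state, with 0 at an unadjusted p under 0.05, beside the same backgrounds. With culture, 26 of the 30 interferon-stimulated genes were lower in Treg and 0 higher in each genotype (against 39.2% of all genes lower in WT and 40.2% in Aim2-/- cells), with medians of -2.52 in WT and -2.84 in Aim2-/- cells. Examples in WT were Oas1a (-5.12), Oas3 (-3.89), both enzymes that activate RNase L, and Ddx58 (-4.02), which encodes the RNA sensor RIG-I. Of the 16 signalling genes 12 were lower and 3 higher in each genotype (37.7% of all genes were higher in WT and 39.1% in Aim2-/- cells), with Irf7 at -4.73 and the kinase gene Tyk2 at -1.25 in WT, and Irf8 at 6.94. Set beside the promoters, Ifi206, Ifi213, Ifi208, Ifi214, Mndal and Ifi203, with the ISRE letters in at least 1 entry, fell in both genotypes. Ifi207, with them, fell in Aim2-/- cells, where alone it was tested. Ifi211, with them, rose in WT and fell in Aim2-/- cells. Ifi209, without them, fell in both genotypes, and Aim2, without them, was called in neither. A link between the letters and the change with culture was not tested.

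Of the genes of the AIM2 inflammasome and of the partners of AIM2 in T cells, none was called between genotypes. EdgeR tested 12 in Tn and 10 in Treg and called 0, beside 0.231% and 0.219% of all genes tested. An unadjusted edgeR p under 0.05 was seen for 4 in Tn and 1 in Treg. Over all genes it was seen for 1389 of 13441 in Tn and 304 of 13221 in Treg. The 4 in Tn were all higher in Aim2-/- cells. With culture in WT cells 2 were higher and 7 lower (background 37.7% and 39.2%), among them Gsdmd, which encodes the pore-forming gasdermin D (-2.74), Zbp1, a sensor of Z-form nucleic acids (-1.85), and Akt1, a kinase of the PI3K pathway (1.23). In Aim2-/- cells 2 were higher and 8 lower (background 39.1% and 40.2%), with -2.90, -2.33 and 1.30 for the same genes.

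Likeness to Aim2 over the 16 libraries was described by the correlation of log2 CPM, with libraries of 4 groups as points. Outside the 8 genes, the highest r among 14669 genes were those of Gm21092 (0.881), Gm9929 (0.878) and Gm10516 (0.874). Gm9929 and Gm10516 were low, with group means of 0.256 to 1.80 CPM and 0 to 0.430 CPM, so their r depends in part on the prior count. Group means of Gm21092 were 7.06 to 9.90 CPM. Within the cluster Ifi203-ps (-0.958) and Ifi204 (-0.940) ran opposite to Aim2, Ifi213 (0.523) and Ifi206 (0.373) lay between, and Ifi211 (-0.126), Mndal (-0.064) and Ifi203 (-0.047) were near 0. These values restate the group levels given above.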

How the data were processed

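Stranded mRNA libraries were read as 51-base single-end reads by the authors, who aligned these to GRCm38 with STAR, ran RSEM for gene quantification and deposited a table for each library. The expected count per gene, for 53090 genes, was deposited as RSEM gave it, without scaling or filter. Tool versions and the strand setting are not given in the sources used here. Groups and replicate numbers came from the titles and source labels. The 8 genes, the gene lists and the tests were chosen with earlier results of these data known. All 8 genes are named, other family genes where they passed a test, and from the other lists at most the 3 with the smallest p.

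Expected counts were rounded. A gene was tested where 4 or more libraries of the comparison had 10 counts or more, in edgeR 4.0.16 (R 4.3.3) with TMM factors, a robust quasi-likelihood fit and a two-sided F test, with Benjamini-Hochberg adjustment over all genes tested and a threshold of 0.05, on the 8 libraries compared, or on 16 for the interaction of genotype and culture. Printed CPM used TMM factors over all 16 libraries. Ratios with a group of 50 counts or fewer carry a 95% exact conditional (Clopper-Pearson) interval on summed counts, and a floor of 3 counts was used against 0. The reads carried no molecular identifiers, so intervals cover counting error only. The fit was tested on simulated counts. Coordinates and transcripts came from GENCODE M21 (98.7% of genes matched) and promoters from RefSeq. Alternatives were DESeq2 1.42.0, limma-voom (limma 3.58.1), RLE factors, other filters, unrounded counts, a replicate block, 16 libraries in one fit, replicates 1 and 2 or 3 and 4 alone, and leaving out each library.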

Additional observations from a re-analysis of the deposited data

Results flagged for a closer look

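Of 28 sets of 4 libraries (1 gene in 1 group), 3 held a library far from the others, and chance gives about 1 in 20 sets. Aim2 was at 9.26 CPM in Aim2-/- Tn replicate 1, against 6.61 to 6.99 CPM in the other 3 libraries. Ifi211 was at 25.3 CPM in WT Treg replicate 4, against 1.99 to 5.80 CPM. Mndal was at 17.2 CPM in Aim2-/- Treg replicate 4, against 22.3 to 23.0 CPM, and Ifi203 was also lowest in that library (22.9 CPM).

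The genotype effect on Ifi211 differed between the states, by -9.09 on the log2 scale (Treg minus Tn), tested as an interaction.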

How the results depend on the processing

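Of 723 values of the 8 genes under alternatives, 703 kept their direction and side of the threshold, 13 passed it and 5 failed it against the reported fit, and 2 changed sign, neither called: with replicates 3 and 4 alone the interaction of Aim2 was -0.0882 and that of Ifi203-ps 0.0875. The genes called between genotypes in Tn numbered 127 with DESeq2, 47 without a filter on low counts, 18 with at least 10 counts in every library, 64 with all 16 libraries in one fit and 499 with replicates 3 and 4 alone, and in Treg 52 with DESeq2, 17 with the stricter filter and 5 with replicates 3 and 4. The stricter filter also left 3 of 5, 1 of 3 and 4 of 5 of the 8 genes called in Tn, in Treg and with culture in Aim2-/- cells, since fewer were tested, and replicates 3 and 4 left 2 in Treg. The interaction was called for 10 genes with DESeq2 and 0 with the stricter filter, and for 0 of the 8 genes with limma-voom, the stricter filter or replicates 3 and 4. Leaving out libraries in turn gave 15 to 23 genes in Treg (15 without WT replicate 2, WT replicate 3 or Aim2-/- replicate 2, 16 without WT replicate 1 and 18 without Aim2-/- replicate 3) and 2 to 5 for the interaction (5 without Aim2-/- Tn replicate 1). With the other family genes added, the summed CPM in Tn was 1059 (WT) and 785.8 (Aim2-/-), or 1024 and 778.4 without Aim2. Except where fewer genes were tested, the cause was not tested.

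Same-numbered libraries were not shown to pair: deviations of WT and Aim2-/- libraries of 1 number had correlations between 0.0234 and 0.302 in Tn and between -0.0134 and 0.395 in Treg. Libraries of different numbers lay between -0.245 and 0.263 in Tn and between -0.492 and 0.379 in Treg. These ranges overlap, but those of different numbers reach lower, and pairing was not tested. With the replicate block 29 genes were called in Tn and 41 in Treg, and of the 8 genes Ifi206 in Treg was added. At this depth 3 counts limit what can be read of Ifi204 and Ifi203-ps in WT and of Ifi213 in Aim2-/- Treg cells.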
